A study of Mus musculus with 12 samples.

Results

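The mitochondrial ribosomal protein genes were the rows of the raw count table whose symbol begins with Mrpl, for the large subunit, or Mrps, for the small subunit, followed by a digit. Names with -ps, which mark pseudogenes, were left out (6 names), and a mean raw count of at least 100 over the 12 libraries was required. The table held 55401 genes, 78 names matched, and 77 genes were kept, 48 of the large subunit and 29 of the small subunit. Mrpl53, with a mean of 0.167 counts, was the only name that fell outside, and the lowest gene inside was Mrpl23, with 182.1 counts. Another annotated gene on the same strand, Gm42688, and an antisense gene together covered 88.0% of the exon bases of Mrpl53 in GENCODE M21, so its low count may not measure its expression. Each of the 3 libraries of a group has its own number in the labels, which do not say outright that it came from its own mouse. The p-values thus rest on the spread of these samples only, which may be technical. All 77 genes passed the filter on low counts and were among the 15764 genes tested.

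The RNA came from left ventricles of mice in 4 groups of 3 libraries. T497A TAC mice carried the T497A change of Prkca, the gene of protein kinase C alpha, and had undergone transverse aortic constriction, an operation that narrows the aorta and makes the ventricle pump against a higher pressure. T497A sham mice had the same genotype and a sham operation, WT TAC mice were wild type with the constriction, and WT sham mice were wild type with the sham operation. Surgery, with a 27-gauge needle to set the constriction, was done at 10 weeks of age, and all mice were sampled 5 weeks later, at 15 weeks. The labels name cardiomyocytes as the cell type, but the protocol extracts RNA from cardiac tissue with no sorting step, and markers of fibroblasts, endothelial cells and macrophages were all measured. The sources used here do not give zygosity or sex. T497A is a point change, so the level of Prkca does not check the genotype labels.

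Mitochondrial ribosomes stand in the mitochondrial matrix, bound to the inner membrane, and make the few proteins that the mitochondrial genome encodes, all of them subunits of the respiratory chain and ATP synthase. Their 2 ribosomal RNAs come from the mitochondrial genome, while every protein is encoded in the nucleus, made in the cytosol and imported. In heart muscle, which lives on respiration, human mutations in several of these genes, MRPL3, MRPL44 and MRPS22 among them, cause cardiomyopathy in infancy. Some of the proteins have counterparts in all ribosomes, others only in bacterial ribosomes, and the rest are found only in mitochondria.

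Totals per library ranged between 36862004 and 46898344 counts. The typical spread of a gene between libraries of a group, the biological coefficient of variation, was 17.2%. No libraries were copies of each other: the chi-square per gene between replicates was between 23.1 and 63.3. The mitochondrial genome took 24.6%, 25.3% and 26.1% of the counts in T497A TAC libraries and 28.5%, 30.9% and 28.3% in T497A sham libraries. It took 20.9%, 19.9% and 19.6% in WT TAC libraries and 25.1%, 26.6% and 29% in WT sham libraries. This share was below every sham library of the same genotype in all 6 TAC libraries, and lowest in WT TAC. Levels below are normalised read counts (CPM) scaled by TMM, which sets libraries equal for the bulk of genes, unless another scale is named.

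Levels per length differed widely among the genes. The CPM per kilobase of the principal transcript (RPKM) ran between 4.08 and 275 over large subunit genes, with a median of 23.6, and between 3.69 and 85.7 over small subunit genes, with a median of 15.2. Mrpl42 was highest, at 275 RPKM, followed in its subunit by Mrpl30 at 96 RPKM and the stalk protein gene Mrpl12 at 75.8 RPKM. Mrpl17 (4.08 RPKM), Mrpl57 (4.28 RPKM) and Mrpl19 (6.1 RPKM) were lowest. Among small subunit genes Mrps21 (85.7 RPKM), Mrps23 (79.6 RPKM) and Mrps9 (47.2 RPKM) led, and Mrps25 (3.69 RPKM), Mrps26 (4.31 RPKM) and Mrps33 (5.9 RPKM) were lowest. A gene on the opposite strand overlaps 69.8% of the exon bases of Mrps25 and 36.0% of those of Mrpl19. The use of strand in counting is not given in the sources used here, so these 2 low levels are uncertain. The order depends on the length used: over the union of all annotated exons Mrpl42 had 49.7 RPKM and ranked 3 in its subunit, behind Mrpl12 at 65.1 RPKM and Mrpl18 at 50.1 RPKM. By counts alone Mrpl42 led under either length, with 183 CPM and 8.23% to 9.98% of the large subunit sum in each library.

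After TAC in WT ventricles, 22 of the 77 genes fell, 1 rose and 54 did not pass the test (edgeR quasi-likelihood test, Benjamini-Hochberg adjusted p under 0.05 over all genes tested). Over all genes tested 12.6% were called lower and 12.3% higher, and 16.3% of the genes with a mean count of at least 100 were called lower. The median log2 fold change, WT TAC over WT sham, was -0.15 over the 77 genes and 0.01 over all genes. It was 0.04 over the 77 genes when libraries were scaled by their total counts, which moves the median of all genes to 0.20; relative to that median the difference was -0.16 under each of the 4 other scalings tried. On total counts 4 of the 77 genes were called lower and 6 higher, against 6.03% and 24.4% of all genes on that scale. Without WT TAC 3, a library of the group, 9 were called lower on the TMM scale. The 3 WT TAC libraries were all below the 3 WT sham libraries for 36 genes, against 20.7% of all genes, and all above for 4, against 21.5%.

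Of the large subunit, 15 of 48 genes fell and 1 rose, with a median log2 fold change of -0.18. Of the small subunit, 7 of 29 fell and none rose, with a median of -0.12. With total counts as the scale these medians were 0.01 and 0.06, so the sign of both turned. Whether the subunits differed was not tested.

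**Figure D1:**
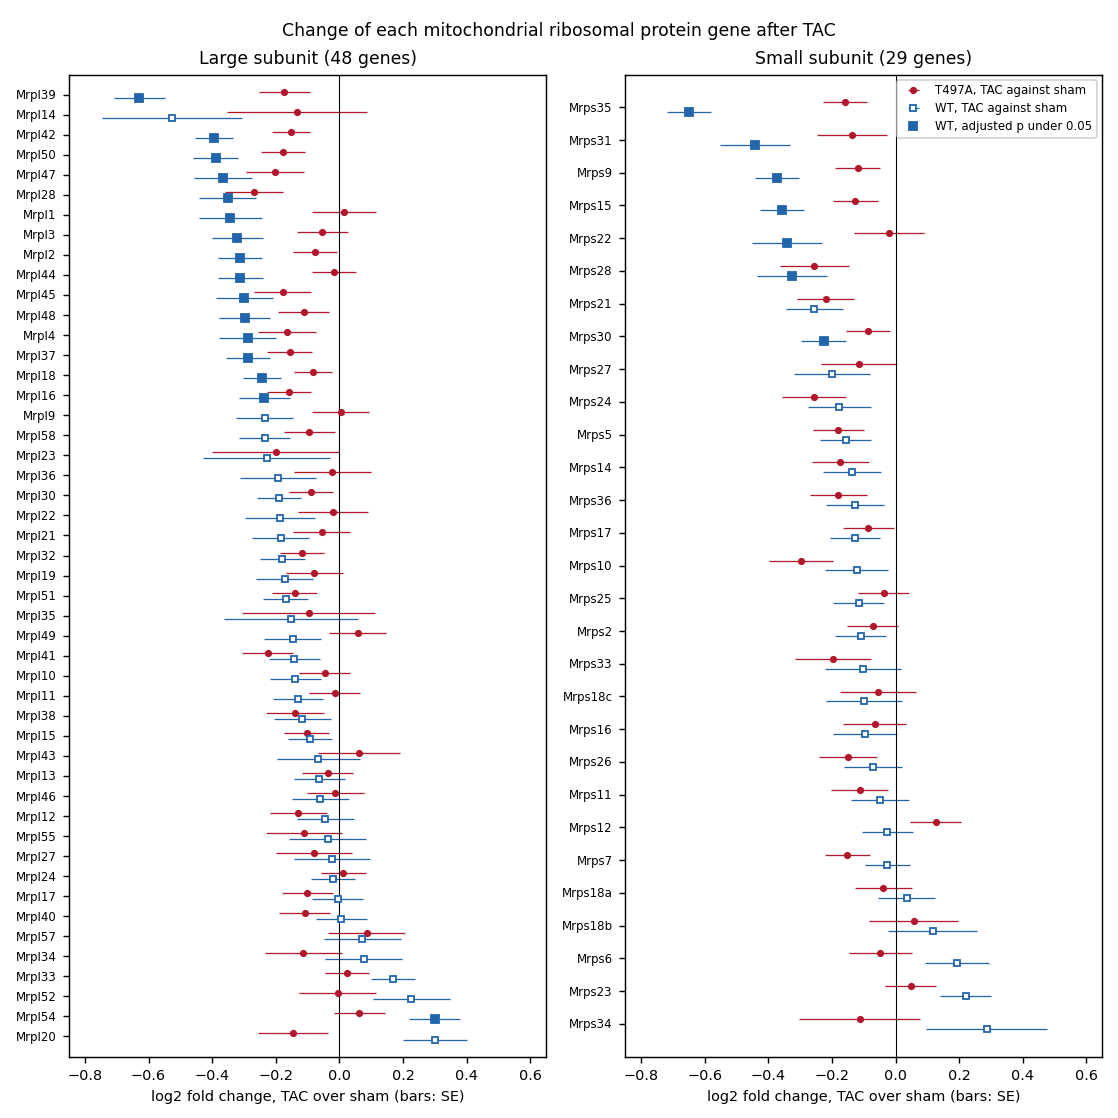
Log2 fold change after TAC of each gene, with its standard error, in T497A (circles) and WT (squares, filled where the adjusted p was under 0.05), for 48 large subunit and 29 small subunit genes ordered by the WT value. In WT 22 genes fell and 1 rose, and in T497A none was called; scaled by total counts the median over the 77 genes would be 0.04 in WT and -0.03 in T497A.

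Mrps35, a small subunit protein found only in mitochondria, showed the largest fall. It had 59.1, 56.6 and 59.0 CPM in T497A TAC, 62.5, 63.3 and 69.2 CPM in T497A sham, 41.3, 46.2 and 42.4 CPM in WT TAC, and 66.2, 68.5 and 69.1 CPM in WT sham. Every WT TAC library lay below all 9 others. The log2 fold change after TAC in WT was -0.65 with a standard error of 0.07 (edgeR adjusted p = 2.54e-05).

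Mrpl39, a large subunit protein found only in mitochondria, followed closely. It had 61.4, 58.8 and 68.4 CPM in T497A TAC, 71.4, 66.1 and 74.9 CPM in T497A sham, 46.1, 48.1 and 41.2 CPM in WT TAC, and 69.7, 66.5 and 73.2 CPM in WT sham. Again the WT TAC libraries stood below all others, and the other 3 groups lay close together. Its log2 fold change in WT was -0.63 with a standard error of 0.08 (edgeR adjusted p = 0.000129).

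Mrpl42 and Mrpl50, also without a bacterial counterpart, were the next large subunit genes among those called. Mrpl14 had a more negative value in WT, -0.53, but was not called. Mrpl42 had 194, 175 and 182 CPM in T497A TAC, 196, 205 and 212 CPM in T497A sham, 154, 151 and 142 CPM in WT TAC, and 195, 197 and 195 CPM in WT sham. Its WT sham libraries hardly differed from each other, and its log2 fold change in WT was -0.40 with a standard error of 0.06 (edgeR adjusted p = 0.000452). Mrpl50 had 63.5, 58.2 and 63.6 CPM in T497A TAC, 75.2, 68.4 and 65.9 CPM in T497A sham, 51.8, 52.9 and 51.3 CPM in WT TAC, and 69.2, 67.2 and 67.9 CPM in WT sham. The fall in WT was -0.39 on the log2 scale with a standard error of 0.07 (edgeR adjusted p = 0.000891). Mrps35, Mrpl39, Mrpl42 and Mrpl50 were the 4 genes called lower in WT under all 20 other settings tried, total-count scaling included.

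**Figure D2:**
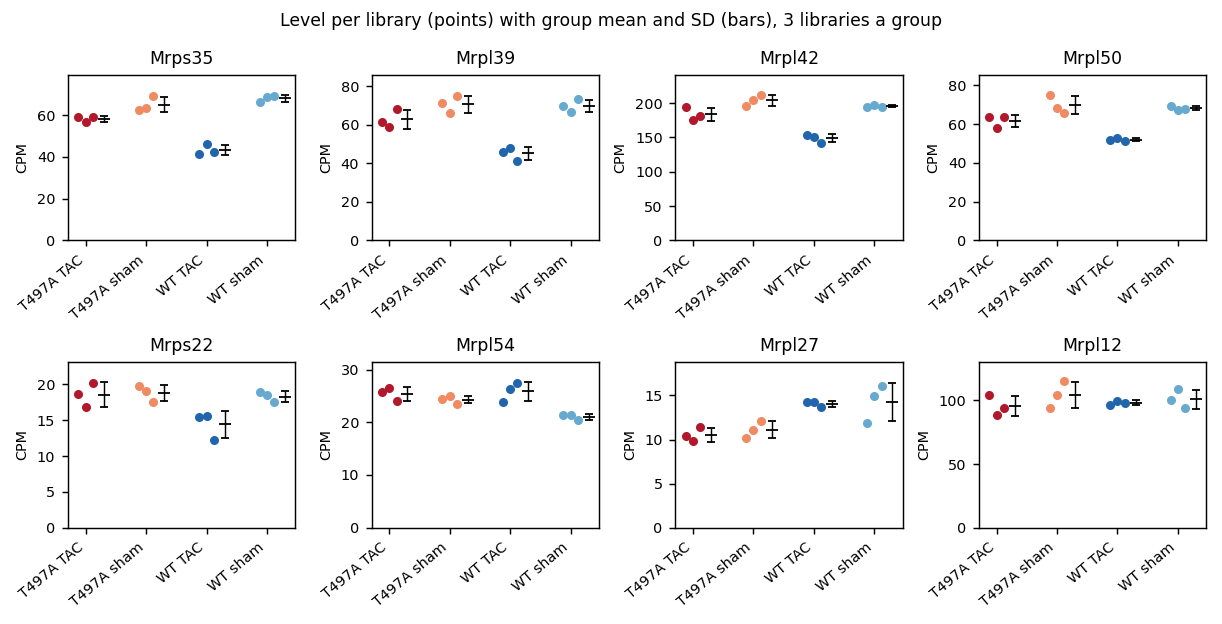
Level in CPM of 8 genes in each of the 12 libraries (points), with the mean and SD of each group of 3 (bars). Mrps35, Mrpl39, Mrpl42, Mrpl50 and Mrps22 were lowest in WT TAC, Mrpl54 was lowest in WT sham, Mrpl27 was lower in both T497A groups than in WT TAC, and Mrpl12 overlapped between all groups.

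The remaining large called falls were in both subunits. In the large subunit Mrpl47, at the rim of the tunnel through which the new chain leaves, averaged 18.1 ± 1.54 CPM in WT TAC and 23.3 ± 1.83 CPM in WT sham (SD, n = 3 each), a log2 fold change of -0.37 (edgeR adjusted p = 0.0119). Mrpl28, which has a bacterial counterpart, averaged 51.5 ± 5.35 CPM in WT TAC and 65.8 ± 2.77 CPM in WT sham, a log2 fold change of -0.35 (edgeR adjusted p = 0.00945). In the small subunit Mrps31, of the head, averaged 29.7 ± 3.67 CPM in WT TAC and 40.4 ± 2.63 CPM in WT sham, a log2 fold change of -0.44 (edgeR adjusted p = 0.0103). Mrps9, also of the head, and Mrps15, both with counterparts in all ribosomes, had log2 fold changes of -0.37 and -0.36 (edgeR adjusted p = 0.00198 and 0.00174). For each of these 5 genes the WT TAC libraries lay wholly below the WT sham libraries. Without WT TAC 3 the calls of Mrpl47, Mrpl28 and Mrps31 were lost, with log2 fold changes of -0.30, -0.29 and -0.38.

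The 3 genes named above for human cardiomyopathy fell in WT, and so did a gene that anchors the ribosome. These cardiomyopathy genes were picked with earlier results known, and other genes with such mutations were not examined as a class. Mrps22, for a small subunit protein found only in mitochondria, had 18.7, 16.8 and 20.2 CPM in T497A TAC, 19.8, 19.1 and 17.6 CPM in T497A sham, 15.4, 15.6 and 12.3 CPM in WT TAC, and 18.9, 18.5 and 17.5 CPM in WT sham. The WT TAC libraries were below the other 9, and the log2 fold change in WT was -0.34 with a standard error of 0.11 (edgeR adjusted p = 0.0301). Mrpl3, a core protein near the site of peptide bond formation, averaged 69.4 ± 5.89 CPM in WT TAC and 86.7 ± 5.04 CPM in WT sham, a log2 fold change of -0.32 (edgeR adjusted p = 0.0133). Mrpl44, near the exit of the tunnel, averaged 36.9 ± 2.33 CPM in WT TAC and 45.8 ± 0.924 CPM in WT sham, a log2 fold change of -0.31 (edgeR adjusted p = 0.00588). Mrpl45, which holds the ribosome at the inner membrane beside the tunnel exit, averaged 49.8 ± 2.9 CPM in WT TAC and 61.3 ± 2.74 CPM in WT sham, a log2 fold change of -0.30 (edgeR adjusted p = 0.0212). The calls of Mrps22, Mrpl3 and Mrpl45 were each lost on leaving out 1 of several WT libraries: WT TAC 3 or any WT sham library for Mrps22, WT TAC 1, WT sham 1 or WT sham 3 for Mrpl3, and WT TAC 2, WT TAC 3 or WT sham 2 for Mrpl45.

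Proteins of the stalk, which recruits translation factors, did not pass the test. Mrpl10 and Mrpl11, at its base, had log2 fold changes of -0.14 and -0.13 in WT (edgeR adjusted p = 0.241 and 0.278). Mrpl12, the stalk protein that also binds the mitochondrial RNA polymerase, had 96.1, 99.9 and 98.3 CPM in WT TAC against 100, 109 and 93.9 CPM in WT sham, so the groups overlapped (log2 fold change -0.04, edgeR adjusted p = 0.749). Mrps12, of the decoding centre, had 16.1, 16.4 and 15.6 CPM in WT TAC against 16.7, 16.4 and 15.9 CPM in WT sham (log2 fold change -0.03, edgeR adjusted p = 0.849).

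The 3 paralogues of bacterial S18 were compared because each takes another place in the ribosome. Mrps18a, which sits in the large subunit in spite of its name, had a log2 fold change of 0.04 in WT, Mrps18b had 0.12 and Mrps18c, which takes the place of bacterial S18, had -0.10; none passed the test (edgeR adjusted p = 0.814, 0.589 and 0.602). For Mrps18b 30.5% of the exon bases are overlapped by another gene on the opposite strand, and the use of strand in counting is not given in the sources used here, so its counts are uncertain. Mrps30, in the central protuberance of the large subunit in spite of its name, fell, with a log2 fold change of -0.23 (edgeR adjusted p = 0.0405); that call was lost on leaving out any WT TAC library, WT sham 2 or 3, T497A TAC 3 or T497A sham 3. Mrps36, now known as a subunit of the 2-oxoglutarate dehydrogenase complex rather than of the ribosome, had a log2 fold change of -0.13 (edgeR adjusted p = 0.325).

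Mrpl54, a large subunit protein found only in mitochondria, was the only gene that rose in WT. It had 25.7, 26.5 and 24.0 CPM in T497A TAC, 24.5, 24.9 and 23.5 CPM in T497A sham, 23.8, 26.4 and 27.4 CPM in WT TAC, and 21.3, 21.3 and 20.4 CPM in WT sham. The WT sham libraries were below all 9 others. The log2 fold change in WT was 0.30 with a standard error of 0.08 (edgeR adjusted p = 0.0119), and 0.26 with the call lost without WT TAC 3. Mrpl20, chosen here after its values were seen, had a value of the same size, 0.30, and an adjusted p of 0.0508 in edgeR.

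Grouped by origin, all 16 large subunit genes with counterparts in all ribosomes had negative values in WT and 7 of them fell, with a median of -0.23. Of 14 large subunit genes with counterparts in bacteria only, 1 fell, with a median of -0.10, and of 18 found only in mitochondria 7 fell and 1 rose, with a median of -0.16. In the small subunit 2 of 11, 1 of 5 and 4 of 12 genes of these classes fell, with medians of -0.13, -0.10 and -0.11. The shares called lower were 43.8%, 7.14% and 38.9% in the large subunit and 18.2%, 20% and 33.3% in the small. Over all genes tested the share was 12.6%, and over those with a mean count of at least 100 it was 16.3%. Whether the classes differed was not tested. The signs of these values and medians rest on the TMM scale, since total counts shift every value up by about the 0.20 given above.

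In T497A ventricles none of the 77 genes was called after TAC, against 0.0507% of all genes called lower and 0.0634% higher by edgeR. DESeq2 and limma-voom called none of the 77 either, and 11 of them (14.3%) had an unadjusted p under 0.05, against 11.7% of all genes. The median log2 fold change, T497A TAC over T497A sham, was -0.10 over the 77 genes, -0.10 over the large and -0.11 over the small subunit, against 0.01 over all genes; with total counts as the scale it was -0.03 over the 77 genes and 0.08 over all genes. The T497A TAC libraries were all below the T497A sham libraries for 19 genes, against 7.68% of all genes, and all above for 1, against 7.71%. The 3 genes with the smallest p were Mrpl28, Mrps10, of the head, and Mrpl41, with log2 fold changes of -0.27, -0.30 and -0.22 (edgeR adjusted p = 0.248, 0.264 and 0.31). Mrpl28 had 59.7, 50.9 and 61.2 CPM in T497A TAC against 66.7, 70.6 and 69.5 CPM in T497A sham, with no overlap.

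Set side by side, 59 of the 77 genes had negative values in both genotypes and 5 had positive values in both. The sign was the same in 83.1% of the 77, against 67.3% of all genes tested. Among genes with a mean count of at least 100 it was the same in 69.3%. The negative signs rest on the TMM scale: with total counts 30 of the 77 genes had negative values in WT and 49 in T497A. The 2 sets of changes share no library. Across the 77 genes Pearson's r between them was 0.41 and Spearman's rho 0.41; over all 15764 genes tested they were 0.42 and 0.47, and over the 11153 genes with a mean count of at least 100 they were 0.65 and 0.58. The 22 genes called lower in WT, which were chosen by their WT values, had log2 fold changes between -0.27 and 0.02 in T497A, with a median of -0.15, and between -0.65 and -0.23 in WT, with a median of -0.33. That the T497A value was nearer to 0 for all 22 is in part fixed by that choice.

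After TAC, 6 of the 77 genes (7.79%) were higher and 1 (1.3%) was lower in T497A than in WT, against 4.64% and 4.06% of all genes. Among genes with a mean count of at least 100 the shares were 6.16% and 5.09%, so the share called higher was near that of such genes. The median log2 fold change, T497A TAC over WT TAC, was 0.10 over the 77 genes and 0 over all genes; with total counts it was -0.03 and -0.13, again a difference of 0.10, and 2 genes were called higher and 4 lower, against 1.9% and 9.31% of all genes on that scale. Without T497A TAC 1 or T497A TAC 3, 3 genes were called higher, and without WT TAC 3, 2. The T497A TAC libraries were all above the WT TAC libraries for 19 genes, against 14.4% of all genes, and all below for 4, against 13.6%. Of the 11153 genes with a mean count of at least 100, 1921 were all above and 1653 all below. Mrpl39 and Mrps35 had the largest differences, 0.48 and 0.43 (edgeR adjusted p = 0.0043 and 0.00271), on the values given above. Mrps22, Mrpl42, Mrps9 and Mrpl50 differed by 0.36, 0.30, 0.28 and 0.25 (edgeR adjusted p = 0.0489, 0.00957, 0.0285 and 0.0352). All 6 were also among the genes called lower after TAC in WT, a comparison that shares the WT TAC libraries with this one. The calls of Mrps22 and Mrps9 were lost in 11 and 4 of the 12 fits that leave out 1 library, and that of Mrpl42 without WT TAC 3. Mrpl50 was not followed through these fits in this comparison, so whether its call held is not known.

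Mrpl27, which reaches towards the site of peptide bond formation, went the other way. It had 10.4, 9.83 and 11.4 CPM in T497A TAC, 10.2, 11.1 and 12.1 CPM in T497A sham, 14.2, 14.3 and 13.7 CPM in WT TAC, and 11.9, 14.9 and 16.1 CPM in WT sham. After TAC the genotypes did not overlap, and the log2 fold change of T497A over WT was -0.42 with a standard error of 0.12 (edgeR adjusted p = 0.044). The call was lost in 9 of the 12 fits that leave out 1 library, with adjusted p between 0.0525 and 0.125. After sham it was -0.36, the smallest p of the 77 genes (edgeR unadjusted p = 0.00903, adjusted p = 1), and the libraries overlapped. TAC itself gave -0.08 in T497A and -0.02 in WT. Mrpl27 lies on chromosome 11 (chr11:94653767-94660089, plus strand, GRCm38), 13.3 megabases from Prkca (chr11:107933387-108343928, minus strand). The other 10 genes of the family on chromosome 11 had values between -0.23 and 0.16 after TAC, none of them called, and 6 of these lie nearer to Prkca. Whether linked sequence bears on Mrpl27 was not tested. Eme1 overlaps 7.6% of its exon bases on the other strand.

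After sham surgery none of the 77 genes differed between T497A and WT in edgeR, DESeq2 or limma-voom, against 0.0254% of all genes called higher and 0% called lower by edgeR, and 2 (2.6%) had an unadjusted p under 0.05, against 3.03% of all genes. The median log2 fold change was 0.03. The next smallest p after Mrpl27 belonged to Mrpl54, with a log2 fold change of 0.21 and no overlap, and Mrpl44, with -0.15 (edgeR adjusted p = 1 for both).

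The difference between the genotypes in the response to TAC was tested as an interaction. Mrps35 was the only gene of the 77 called, with a log2 difference of 0.49 and a standard error of 0.09 (edgeR adjusted p = 0.0249), while 0.894% of all genes had positive and 0.679% negative interactions called. The call was lost with total-count scaling (adjusted p = 0.0846) and on leaving out 7 of the 12 libraries in turn (T497A TAC 1 or 3, T497A sham 2, WT TAC 1 or 3, WT sham 1 or 3), with adjusted p between 0.0553 and 0.0734 in those fits. Mrpl39 and Mrpl20 followed, with 0.46 and -0.45 (edgeR adjusted p = 0.0646 and 0.145). For the other genes a call in WT and none in T497A does not show that the genotypes differ. Averaged over the genotypes, 27 of the 77 genes fell after TAC and 1 rose, against 11.2% of all genes in each direction (11.2% higher and 11.2% lower). With total counts 4 were called lower and 3 higher, against 5.39% and 23.7% of all genes on that scale. On the TMM scale without the library WT TAC 1, 17 genes fell. Among the genes called, the largest averaged changes were those of Mrps35 and Mrpl39, both -0.40 (edgeR adjusted p = 6.92e-05 and 0.000305). Mrpl28 at -0.31, Mrps28 at -0.29 and Mrps31 at -0.29 came next. Mrpl54 again rose, by 0.18 (edgeR adjusted p = 0.0286), a call lost in 7 of the 12 fits that leave out 1 library.

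The summed level of large subunit genes was 2047, 1880 and 1946 CPM in T497A TAC, 2079, 2056 and 2174 CPM in T497A sham, 1788, 1832 and 1724 CPM in WT TAC, and 2046, 2100 and 2033 CPM in WT sham. That of small subunit genes was 880.5, 813.8 and 832.5 CPM in T497A TAC, 898.7, 889.9 and 931.1 CPM in T497A sham, 815.5, 813.7 and 779.6 CPM in WT TAC, and 883.6, 924.3 and 862 CPM in WT sham. On the TMM scale both sums were lower in every TAC library than in every sham library of the same genotype, in WT and in T497A. In T497A the nearest libraries were close, at 2047 against 2056 CPM and 880.5 against 889.9 CPM. The ratio of the large to the small sum, which no scaling changes, averaged 2.32 ± 0.0135 in T497A TAC, 2.32 ± 0.0133 in T497A sham, 2.22 ± 0.0299 in WT TAC and 2.32 ± 0.0432 in WT sham (SD, n = 3 each). The 3 WT TAC libraries, at 2.19, 2.25 and 2.21, were the lowest of the 12. On the log2 scale the ratio differed after TAC by 0.003 in T497A and by -0.062 in WT. Mrpl42 alone carries part of the WT shift: without it the value was -0.043, and with every gene weighted equally, as the mean of log2 CPM, it was -0.025. That equal weighting gave 0.026 in T497A, so the shift near 0 there depends on the weighting too. Assigning Mrps18a and Mrps30 to the large subunit and leaving out Mrps36 gave -0.05. With that assignment the ratio was 2.55, 2.61 and 2.55 in WT TAC and 2.65, 2.61 and 2.71 in WT sham. WT TAC 2 and WT sham 2 were then equal as rounded. No p is given for these sums, since the genes were chosen with earlier results known.

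**Figure D3:**
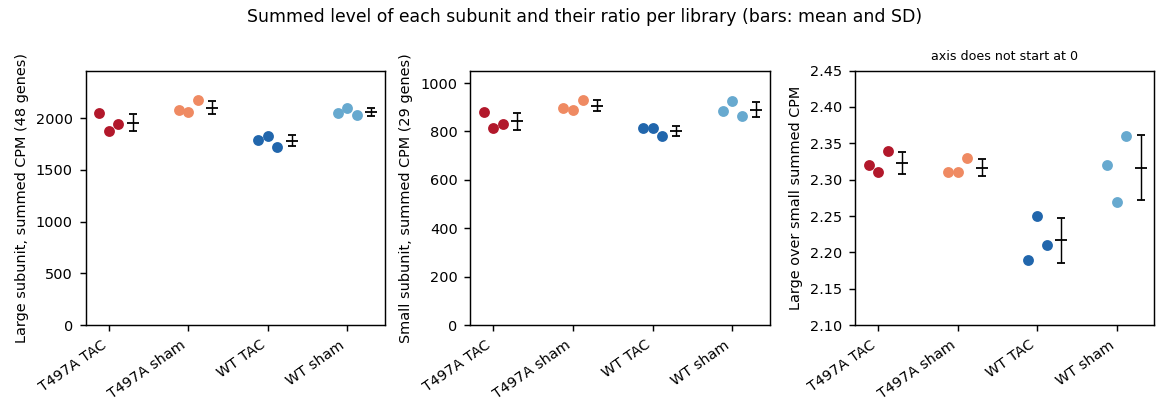
Summed CPM of the large subunit (48 genes) and the small subunit (29 genes) and their ratio in each library (points), with the mean and SD of each group of 3. The ratio is lowest in the 3 WT TAC libraries, between 2.19 and 2.25, and between 2.27 and 2.36 in the other 9; the sums are on the TMM scale.

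The share of all counts taken by the 77 genes was 0.295%, 0.275% and 0.269% in T497A TAC, 0.278%, 0.278% and 0.301% in T497A sham, 0.292%, 0.292% and 0.265% in WT TAC, and 0.291%, 0.292% and 0.27% in WT sham. On this scale all groups overlapped. In WT TAC libraries the mitochondrial genome took fewer of the counts, as given above, and with total counts outside the mitochondrial genome 14 of the 77 genes were called lower and 4 higher, against 9.46% and 14.2% of all genes on that scale. The part of the mitochondrial transcripts in these differences was not tested.

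**Figure D4:**
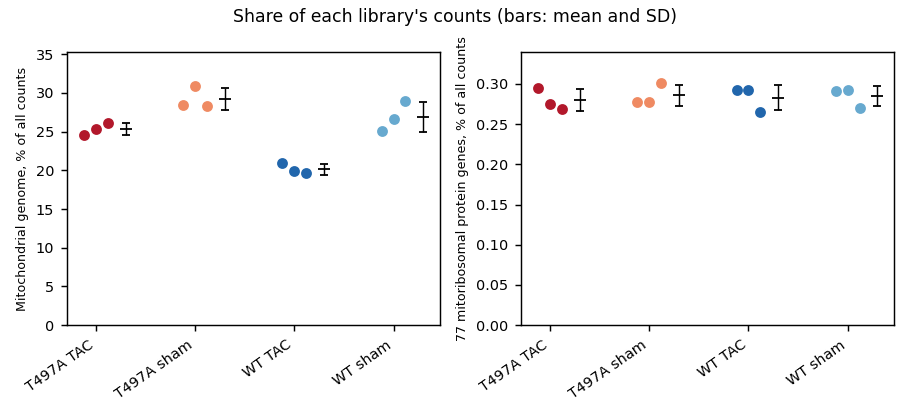
Percent of each library's counts that fell on the mitochondrial genome and on the 77 mitochondrial ribosomal protein genes (points), with the mean and SD of each group of 3. The mitochondrial genome took 19.6% to 20.9% in WT TAC and 24.6% to 30.9% in the other groups, while the 77 genes took 0.265% to 0.301% in every group.

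Other genes of mitochondrial gene expression were taken from lists. Beside the counts that follow, 12.6% of all genes tested were called lower and 12.3% higher after TAC in WT. Dap3, a small subunit protein with another kind of name, fell in WT (57.3 ± 2.79 CPM in WT TAC and 76.5 ± 1.61 CPM in WT sham, log2 fold change -0.42, edgeR adjusted p = 0.000639), the only call among 5 such genes. Of 30 assembly factors 13 fell and none rose, with a median of -0.25, led by the methyltransferase-like genes Mettl15 (-0.65) and Mettl17 (-0.58). Of 19 translation factors 10 fell, with a median of -0.29, led by Metap1d (-0.79), which trims the first methionine, and Lrpprc (-0.67), which stabilises mitochondrial mRNAs. Of 20 synthetase and amidotransferase genes 11 fell, with a median of -0.34, led by Nars2 (-0.64) and Qrsl1 (-0.52). Of 18 genes of mitochondrial DNA transcription and replication 11 fell, with a median of -0.30, led by the topoisomerase Top1mt (-1.08) and the exonuclease Mgme1 (-0.65). With total counts these 4 medians were -0.06, -0.10, -0.15 and -0.11, negative on either scale.

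Transcripts of the mitochondrial genome, and most of those for nuclear respiratory chain subunits, also fell in WT. Both mitochondrial ribosomal RNAs fell, with log2 fold changes of -0.77 for mt-Rnr2 and -0.72 for mt-Rnr1 (edgeR adjusted p = 0.00231 and 0.00926); the library kit selects polyadenylated RNA, so their counts do not measure mature ribosomal RNA. All 13 mitochondrially encoded protein genes fell, with a median of -0.67, and 64 of 81 nuclear genes named as respiratory chain subunits fell, with a median of -0.33. Of 78 cytosolic ribosomal protein genes 1 fell and 7 rose (1.28% and 8.97%), against 12.6% and 12.3% of all genes, with a median of 0.11. With total counts these 3 medians were -0.49, -0.14 and 0.30. In T497A no gene of these lists was called after TAC; medians were -0.07 for assembly factors, -0.12 for translation factors, -0.12 for synthetases, -0.10 for transcription and replication, -0.21 for the respiratory chain, -0.31 for mitochondrially encoded proteins and -0.03 for cytosolic ribosomal proteins. The last was 0.05 with total counts, and that of assembly factors 0.01. After TAC, 1 of 30 assembly factors, 3 of 19 translation factors, 3 of 20 synthetase genes and 7 of 18 transcription and replication genes were higher in T497A than in WT. So were 14 of 81 respiratory chain genes, 9 of 13 mitochondrially encoded protein genes and both mitochondrial ribosomal RNAs. Over all genes 4.64% were called higher. With total counts the medians of these lists were 0.05, 0.11, 0.08, 0.08, 0.01, 0.39 and 0.49 in that order, against -0.13 over all genes. No gene of these lists was lower in T497A, while 1 of 78 cytosolic ribosomal protein genes was higher and 3 were lower. Over all genes 4.06% were called lower.

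**Figure D5:**
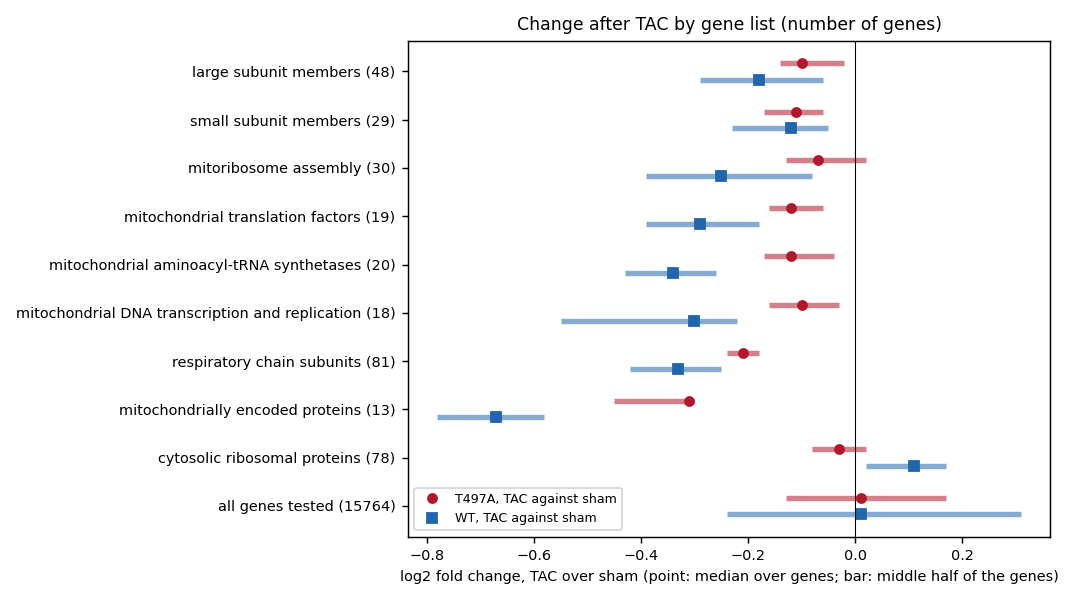
Median log2 fold change after TAC (points) and the middle 50% of the genes (bars) for each list, in T497A (circles) and WT (squares), on the TMM scale. In WT the median is -0.18 for the large and -0.12 for the small subunit, against -0.33 for the respiratory chain and 0.11 for cytosolic ribosomal proteins; with total counts these 4 medians would be 0.01, 0.06, -0.14 and 0.30.

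Markers of some cell types moved with the same comparison. Over all genes tested 12.6% were called lower and 12.3% higher after TAC in WT, and 0.0507% and 0.0634% in T497A. In WT, 7 of 10 cardiomyocyte markers fell and none rose, and their summed level was 46300 to 55700 CPM in WT TAC and 64000 to 74900 CPM in WT sham; in T497A it was 57000 to 60000 CPM after TAC and 58800 to 69100 CPM after sham, with none called. Of 10 fibroblast markers 6 rose and 1 fell in WT, with sums of 3600 to 4060 CPM in WT TAC and 1980 to 2100 CPM in WT sham, and 2480 to 2980 CPM in T497A TAC and 1990 to 2460 CPM in T497A sham. Of 10 macrophage markers 9 rose in WT, with sums of 329 to 420 CPM in WT TAC and 193 to 235 CPM in WT sham, and 1 rose in T497A, with sums of 277 to 350 CPM in T497A TAC and 221 to 278 CPM in T497A sham. No endothelial marker of 10 and no lymphocyte marker of 7 was called in either genotype. In WT 1 of 8 smooth muscle and pericyte markers (12.5%) rose, near the share of all genes. In these bulk samples fewer cells of a type and less RNA per cell cannot be told apart, and the part of the cell mixture in the changes of the 77 genes was not tested.

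The 77 genes lie on 17 chromosomes; chromosome 11 holds 11 of them, more than any other. In GENCODE M21, 33 of them (42.9%) start within 1000 bases of a gene that is read in the opposite direction, against 1702 of 10474 protein-coding genes with a mean count of at least 100 (16.2%), given as a description. Mrpl46 and Mrps11, of the 2 subunits, share such a start; their log2 fold changes in WT were -0.06 and -0.05, and neither was called. Their exons overlap in GENCODE M21, over 12.2% and 8.0% of the bases, so reads there cannot be assigned without strand. Mrps12 faces Sars2, the mitochondrial seryl-tRNA synthetase, Mrpl50 faces Zfp189 and Mrpl54 faces Apba3. Stretches between the RefSeq starts of 3 such pairs, chosen after the values were seen, are shown without bases annotated as exons in GENCODE M21. They hold 82, 146 and 29 bases, where the RefSeq starts lie 93, 147 and 42 bases apart. In GENCODE M21 the gene model of Mrpl46 runs past the last stretch, to base 78783531. Each is read in the direction of the mitochondrial ribosomal gene named first (RefSeq, GRCm38.p6).
Mrpl50 and Zfp189, chr4:49521094-49521175, minus strand: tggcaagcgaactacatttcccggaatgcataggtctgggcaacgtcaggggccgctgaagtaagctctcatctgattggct
Mrps12 and Sars2, chr7:28741822-28741967, minus strand: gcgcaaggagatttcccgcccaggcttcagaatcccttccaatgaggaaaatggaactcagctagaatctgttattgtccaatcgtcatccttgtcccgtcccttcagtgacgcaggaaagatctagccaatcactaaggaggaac
Mrps11 and Mrpl46, chr7:78783090-78783118, plus strand: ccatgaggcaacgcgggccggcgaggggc

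Promoter windows of 250 bases before and 50 after the RefSeq start were found for 68 of the 77 genes and searched on both strands. The NRF1 motif GCGCANGCG was in 16 of them (23.5%), against 14.4% of genes with a mean count of at least 100 and 6.46% of all promoters. The GABPA motif CCGGAAG was in 23 (33.8%), against 19.0% and 9.15%, and the YY1 motif AAGATGGCG in 8 (11.8%), against 3.44% and 1.48%. The E-box CACGTG was in 5 (7.35%), against 10.5% and 7.17%, and the ERR motif TCAAGGTCA in none, against 0.228% and 0.403%. Among the 19 windows of genes that fell in WT, 4 held the NRF1 motif and 3 the GABPA motif, against 12 and 20 of the other 49. No motif lies within another, although CCGGAAG and AAGATGGCG can overlap by the letters AAG. The median content of G and C was 58.2% in the 68 windows and 61.3% in those of genes with a mean count of at least 100. The ZNF143 motif CCCNGNATG, added after the sequences had been read, was in 3 windows (4.41%), those of Mrpl50, Mrps22 and Mrps27, against 4.96% and 4.27%. For 19 of the 68 windows the RefSeq start lay over 100 bases from the start of the gene model in GENCODE M21. The YY1 matches of Mrpl36, Mrpl35 and Mrps24 come from windows whose starts lay 2496, 3185 and 7979 bases away. The GABPA match of Mrpl33 comes from one 17016 bases away. A match is a run of letters, not a site shown to be bound.

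Of the 22 genes called lower in WT, Mrps22 and Mrpl45 had the largest falls among those with a match to one of the first 5 motifs in the 250 bases before the start and no annotated exon there; Mrpl39, Mrpl3, Mrpl2 and Mrpl44 were passed over for such exons. These bases are printed with the matches to those 5 motifs in capitals, so that the place of each can be seen; the ZNF143 match of Mrps22 is left in lower case. In Mrps22 the GABPA motif begins 11 bases before the start, and in Mrpl45 the NRF1 motif begins 120 and 38 bases before it (RefSeq, GRCm38.p6, each read in the direction of its gene).
Mrps22, chr9:98601680-98601929, minus strand: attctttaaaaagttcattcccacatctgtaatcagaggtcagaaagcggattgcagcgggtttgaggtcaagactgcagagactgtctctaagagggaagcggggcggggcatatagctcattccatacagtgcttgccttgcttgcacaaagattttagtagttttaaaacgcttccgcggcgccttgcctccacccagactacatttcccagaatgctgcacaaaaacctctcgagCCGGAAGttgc
Mrpl45, chr11:97315466-97315715, plus strand: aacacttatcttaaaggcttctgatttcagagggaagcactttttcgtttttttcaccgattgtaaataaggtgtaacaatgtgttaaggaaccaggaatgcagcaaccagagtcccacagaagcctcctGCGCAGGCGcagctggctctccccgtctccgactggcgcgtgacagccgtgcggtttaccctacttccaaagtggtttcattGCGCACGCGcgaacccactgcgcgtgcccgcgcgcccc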

How the data were processed

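RNA from mouse left ventricles, 12 libraries in 4 groups of 3, was sequenced as single-end reads of 75 cycles with a kit for mRNA, per the labels' protocols. The submitters' processing notes name the build mm10, the aligner STAR 2.7.3a, featureCounts, Trim Galore 0.6.4, limma 3.50.3 and Subread 1.6.3. The deposited values are the authors' raw counts per gene, whole numbers with no normalization; whether counting used strand is not given in the sources used here. Every column was used.

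From these counts, genes were filtered with filterByExpr (minimum count 10) and fitted in R 4.3.3 with edgeR 4.0.16 (TMM, quasi-likelihood test) over all 12 libraries with a mean per group; contrasts gave the 4 pairwise comparisons, the interaction and the average. A gene is called at an adjusted p (Benjamini-Hochberg, 15764 genes) under 0.05. DESeq2 1.42.0, limma-voom (limma 3.58.1), other scalings, filters and leaving out each library were the alternatives; scaling by total counts, with or without the mitochondrial genome, and the ratio without Mrpl42 were added after seeing the data. The procedure was tested on simulated data. Intervals were not computed, and the depth, 36862004 to 46898344 counts, limits the precision of the lowest genes.

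Genes were named by rule: per subunit the 5 largest called changes each way in WT, up to 5 elsewhere or the 3 smallest p, genes of fixed roles, and the 3 highest and lowest levels per subunit. Members and lists were chosen with earlier results of these data known. Promoter sequences come from RefSeq, GRCm38.p6; proteins are not shown here. Windows that overlap annotated exons were not printed, so the printed promoters reach beyond the 5 largest changes of each subunit.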

Additional observations from a re-analysis of the deposited data

Results flagged for a closer look

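Among the 77 genes and the lists of mitochondrial gene expression, 4 genes had a response to TAC that differed between T497A and WT in the test of that difference (edgeR interaction). Over all genes tested 0.894% had positive and 0.679% negative interactions called. Mrps35 had a log2 difference of 0.49 (edgeR adjusted p = 0.0249), from the libraries given in the report. As given there, its call was lost with total-count scaling (edgeR adjusted p = 0.0846) and on leaving out some single libraries. Other scalings and leaving out libraries were not examined for Lrpprc, Qrsl1 and Hsd17b10.

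Lrpprc averaged 228 ± 6.89 CPM in T497A TAC, 268 ± 27.1 CPM in T497A sham, 185 ± 5.21 CPM in WT TAC and 294 ± 10.9 CPM in WT sham (SD, n = 3 each), a log2 difference of 0.44 (edgeR adjusted p = 0.0481). Qrsl1, a subunit of the glutamyl-tRNA amidotransferase, averaged 24.1 ± 2.02 CPM in T497A TAC, 23 ± 1.1 CPM in T497A sham, 18.5 ± 1.24 CPM in WT TAC and 26.5 ± 1.72 CPM in WT sham, a log2 difference of 0.59 (edgeR adjusted p = 0.0391). Hsd17b10, also a subunit of mitochondrial RNase P, averaged 75.2 ± 4.32 CPM in T497A TAC, 85.4 ± 2.35 CPM in T497A sham, 59.7 ± 3.37 CPM in WT TAC and 91.1 ± 3.26 CPM in WT sham, a log2 difference of 0.43 (edgeR adjusted p = 0.0432).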

How the results depend on the processing

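With total counts as the scale, the 22 genes called lower in WT became 4, the 6 called higher in T497A after TAC became 2, the 1 interaction became 0, and the 27 averaged falls became 4. With totals outside the mitochondrial genome these counts were 14, 3, 0 and 16. Fitting only the 6 libraries compared gave 3 genes higher in T497A after TAC, and both the fit with no filter and DESeq2 gave 2 interactions. Leaving out each library gave 9 to 23 genes lower in WT, 2 to 9 higher in T497A after TAC, 0 to 3 interactions and 17 to 24 averaged falls. No gene was called after TAC in T497A, or between genotypes after sham, under any alternative run. As a mean of log2 CPM the large minus small shift was -0.025 in WT and 0.026 in T497A.

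Among genes whose WT value or level is given, none of them called in WT on the TMM scale, the sign in WT turned with total counts for Mrpl27 (0.17), Mrpl46 (0.12), Mrps11 (0.13), Mrps10 (0.06), Mrpl41 (0.04), Mrpl10 (0.05), Mrpl11 (0.06), Mrpl12 (0.14), Mrps12 (0.16), Mrps18c (0.09), Mrps36 (0.06), Mrpl19 (0.01), Mrpl17 (0.18), Mrps33 (0.08), Mrps26 (0.11) and Mrps25 (0.07). With totals outside the mitochondrial genome it turned for Mrpl12 (0.01), Mrps11 (0.01), Mrps12 (0.03), Mrpl27 (0.04) and Mrpl17 (0.05). On leaving out each library in turn, the value ran between -0.10 and 0.01 for Mrpl12, 0 and 0.09 for Mrps18a, -0.18 and 0.02 for Mrps18c, and -0.04 and 0.04 for Mrpl17. The cause was not tested.

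No paired analysis was possible because every title ends in the same replicate number, so the numbers given here follow accession order and pair nothing.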
